A study of Mus musculus with 9 samples.

Results

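The genes described here encode the fibrous and basement membrane proteins of the extracellular matrix. They were all mRNA-type rows whose symbol is that of a collagen chain (Col, a number, a and a number), a laminin chain (Lama, Lamb or Lamc), a fibrillin, a fibulin or an emilin, together with Eln, Fn1, Nid1, Nid2, Lox, Hspg2 and Sparc. There were 71 such genes among the 18984 rows of the tables, of which 18763 were mRNA-type, and they comprised 44 collagen chains and 11 laminin chains. The rule reads symbols alone and no measured value, but it was set with earlier results of these data known. RNA came from whole lungs of C57BL/6 mice 24 hours after intratracheal inoculation. Control mice received normal saline, another group conidia of Aspergillus fumigatus (the inhaled resting spores) and the last group hyphal fragments of the fungus (pieces of its filamentous growth form). Each group had 3 libraries of poly(A) RNA, 9 in all, and no genetic modification is named. Nothing in the labels ties the libraries to separate animals, so the p-values reflect the variation among these libraries alone, which may be technical.

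Collagens are triple helices of 3 chains. Type I, III and V collagens form the tensile fibrils of vessel walls, airways and pleura, whereas type IV collagens form a sheet beneath epithelium and endothelium. Laminins are trimers of an alpha, a beta and a gamma chain. They form the other sheet of the basement membrane, and nidogens and the proteoglycan perlecan join both sheets. Elastic fibres give the lung its recoil. They consist of crosslinked elastin on a scaffold of fibrillin microfibrils, with fibulins and emilins at their surface and lysyl oxidase as the crosslinking enzyme.

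Values were FPKM, fragment counts scaled for transcript length and library depth, so levels of different genes can be set side by side. The sum of FPKM over all genes was between 492540 and 561250, and the depth estimated from the spacing of low values was 17400000 to 18400000 fragments per library. The filter was a level of 1 FPKM or more in 3 or more libraries, which 13761 genes and 52 of the 71 matrix genes passed. These were tested with limma on log2(FPKM + 1). Every adjusted p below is limma's after Benjamini-Hochberg adjustment over all genes tested, and values under 0.05 count as called. Between hyphae and control the median gene was displaced by −0.37 on the log2 scale and between hyphae and conidia by −0.29, beside −0.07 for conidia and control. Log2 changes for hyphae are therefore followed by the value after median-of-ratios rescaling, which brought the first pair of shifts to −0.07 and −0.05. Control replicate 1 and hyphae replicate 3 stood apart in genes of neighbouring tissue. Adipose markers (8 genes) summed to 1382 and 841 FPKM there, against 33.7 to 562 in the other libraries, and cardiac muscle markers (8 genes) to 1592 and 2329, against 117 to 545. Sftpc, surfactant protein C of alveolar type 2 cells, averaged 21014 FPKM in control, 14193 after conidia and 22676 after hyphae. After hyphae 1 of 10 alveolar type 2 markers was called higher and 4 lower (10 and 40%, against 14.9 and 50% of all genes). After rescaling 3 were higher and 3 lower, and after conidia none was called. They summed to 20705 to 29937 FPKM in control, 16157 to 26281 after conidia and 26544 to 30667 after hyphae. Rescaled, these sums were 18733 to 27035 FPKM in control, 15707 to 23774.5 after conidia and 31403 to 33240 after hyphae. Airway epithelial markers were lower after hyphae. Of 10 ciliated cell markers 10 were called lower than in control (9 rescaled), with summed levels of 985 to 1269 FPKM in control, 480.4 to 791 with conidia and 397 to 781 with hyphae. Of 8 club and goblet cell markers 7 were called lower after hyphae (5 rescaled) and 1 after conidia, and they summed to 68951 to 125896, 47301 to 64346 and 32345 to 41240.2 FPKM in the same order. The part of these shifts in the matrix results was not tested.

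The 71 genes together held 0.439 to 0.466% of summed FPKM in the control libraries. With conidia the share was 0.512 to 0.578%, and with hyphae 0.523 to 0.658%. Their summed level was 2414 ± 63.8 FPKM in control (mean ± SD, n = 3 here and below), 2843 ± 147 after conidia and 2952 ± 274 after hyphae, and neither fungal group overlapped the controls. The classes did not share this direction. Basement membrane network collagens (Col4a1 to Col4a6) summed to 327 ± 62.6 FPKM in control, 595 ± 128 after conidia and 672 ± 69.95 after hyphae. Fibrillar collagens summed to 423 ± 116 FPKM in control, 314 ± 116 after conidia and 290.1 ± 23.2 after hyphae. Rescaled, type IV collagens summed to 297 ± 57.7 FPKM in control, 566 ± 151 after conidia and 775 ± 85.5 after hyphae. Rescaled fibrillar sums were 383 ± 104, 295 ± 97 and 335 ± 38.3 FPKM in the same order. The rescaled fibrillar sums after hyphae overlapped those of the controls. Fibrillar collagens exceeded type IV collagens in control replicates 1 and 2, and type IV collagens exceeded fibrillar ones in control replicate 3 and in all 6 fungal libraries. Sparc had the highest control level of the 71 genes, 781 ± 47.9 FPKM. Eln, Col3a1, Col4a1, Col4a2, Col1a2 and Col1a1 followed, with control means from 116 to 154 FPKM whose neighbours in this order overlapped in their spread. In whole tissue, fewer cells of a type and less RNA per cell cannot be told apart.

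**Figure D1:**
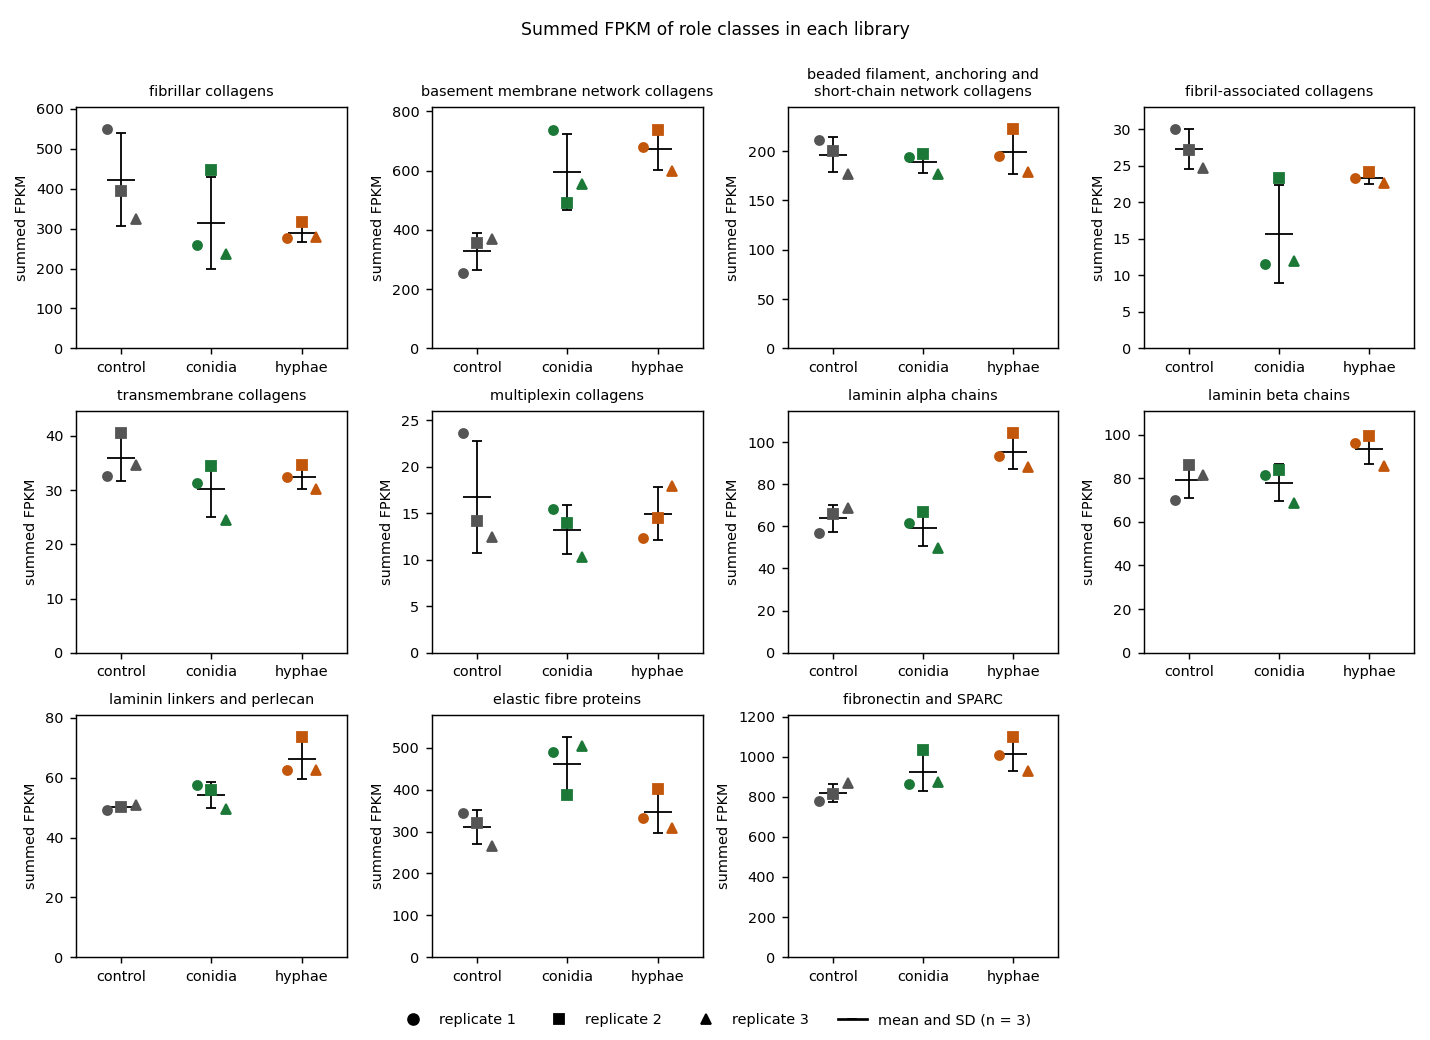
Summed FPKM (vertical axes, from 0) of 11 role classes in the 3 control, 3 conidia and 3 hyphae libraries; symbols mark replicates and bars the mean and SD. Type IV collagens lay at 255 to 369.8 in control libraries, 491 to 738 in conidia and 599 to 738 in hyphae libraries, while fibrillar collagens were highest in control replicate 1, at 551.

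After conidia no matrix gene was called by limma among the 52 tested, where 0.596% of all genes were called higher and 0.0945% lower. At an unadjusted p under 0.05 there were 7 matrix genes higher and 11 lower, against 8.78 and 12.4% of all genes. All conidia libraries exceeded all controls for 11 of the 52 genes and were below them for 11, against 12 and 17.8% of all genes. The 3 conidia libraries were unlike each other. Neutrophil markers (12 genes) summed to 883 FPKM in replicate 2, 3228 and 2304 in replicates 1 and 3, 135 to 157 in control and 703 to 6223 after hyphae. Without conidia replicate 2 there were 5 matrix genes called higher (among them Lox, Lamc3, Col4a1 and Col4a2) and 10 lower (Col6a3, Col14a1, Fbln1, Col16a1, Fbln5, Col27a1, Col4a6, Col1a1, Col1a2 and Col17a1), against 4.77 and 6.38% of all genes. When any other single library was left out, both counts were 0. In those fits the number called among all 13761 genes was 0 without control replicate 1, 2 or 3 or conidia replicate 3, 1 without conidia replicate 1 and 7, 101 and 233 without hyphae replicate 2, 3 or 1, respectively. Conidia replicate 2 was singled out after its values were seen. For genes in which it stood apart, leaving it out also narrows the spread within its group. Small p-values given below without it follow in part from that choice and do not establish a change after conidia.

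After hyphae 10 of the 52 matrix genes rose (19.2%) and 5 fell (9.62%), whereas 14.9% of all genes tested were called higher and 50% lower. After rescaling, 19 matrix genes rose and 1 fell, against 26.8 and 33.3% of all genes. The hyphae libraries lay wholly above the controls for 12 of the 52 genes and wholly below for 8, against 17.3 and 53.4% of all genes. The median log2 change of the 52 genes was 0.03, and 0.33 rescaled. Among the 10 that rose were Lox, Col4a1, Col4a2, Lama5, Emilin2, Lamb3, Lamc1, Nid1 and Sparc. Laminins, nidogens, perlecan and type IV collagens made up 7 of the 10, and 19 of the 52 tested. The 5 that fell were Col8a2, Col1a1, Col27a1, Col4a6 and Col26a1, all collagens, of which Col4a6 is a type IV chain. Of these 15 calls, 8 (among them Col4a1, Col4a2, Lama5, Lamc1, Nid1, Lox and Col8a2) remained under every alternative tried and without each library in turn. Where a call is said below to be lost without certain libraries, each was left out on its own. The number that fell was 1 without control replicate 1 or hyphae replicate 3 and 2 without hyphae replicate 2. It was 3 without control replicate 2, conidia replicate 3 or hyphae replicate 1. In these fits 43.6 to 50.6% of all genes were lower. Without conidia replicate 2 the number that fell was 9, where 50.5% of all genes were lower (and 15.1% higher).

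Between the fungal groups, 7 matrix genes (Lama5, Col12a1, Col16a1, Hspg2, Lama2, Lamc1 and Col20a1) were higher after hyphae and 2 (Eln and Emilin1) lower, against 12.7 and 42.5% of all genes. After rescaling these counts were 20 and 0, against 23.5 and 27.7%. There were 8 genes with all hyphae libraries above all conidia libraries and 2 below, against 14.8 and 45.1% of all genes. The count of higher genes was 14 without conidia replicate 2 (12.4% of all genes; 3 matrix genes and 36.1% of all genes lower). It was 4 without conidia replicate 3 (10.1% of all genes) and 3 without hyphae replicate 2 (9.73%). The count of lower genes was 1 without any single control library or conidia replicate 1 (39.9 to 42.5% of all genes). It was 0 without conidia replicate 3 (34.8%) or hyphae replicate 3 (35.8%). The 3 comparisons share libraries and are not independent of each other.

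**Figure D2:**
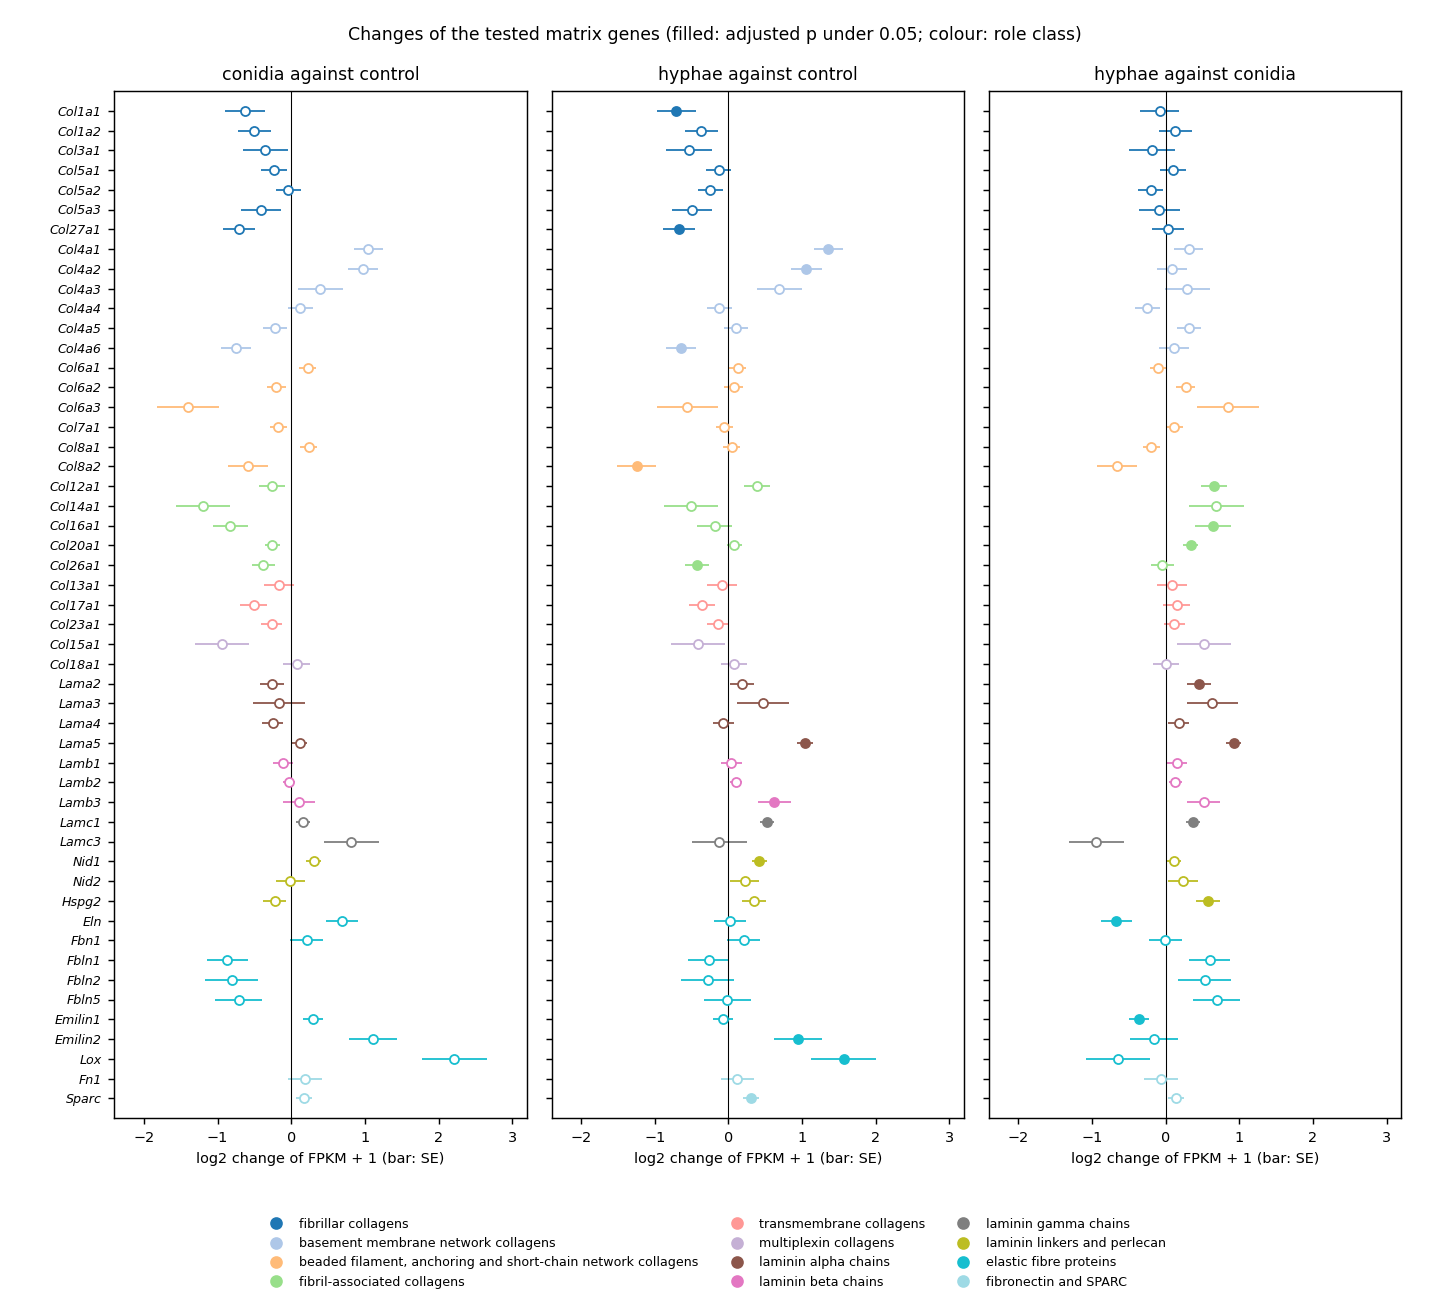
Log2 change of FPKM + 1 with its SE (horizontal axes) for 51 of the 52 tested matrix genes in each of the 3 comparisons, as deposited; filled symbols had an adjusted p under 0.05 and colours mark the role class. No symbol is filled for conidia against control, while 9 genes lie filled to the right and 5 to the left for hyphae against control.

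Type IV collagen chains assemble into the network of basement membranes, and the products of Col4a1 and Col4a2 form it together in almost every tissue. Col4a1 (Entrez 12826) stood at 102, 139.9 and 146 FPKM in control, 343, 215 and 252 after conidia and 328, 367 and 295 after hyphae. Its partner Col4a2 (Entrez 12827) stood at 95.9, 131 and 145 FPKM in control, 317, 189 and 235 after conidia and 256, 277 and 236 after hyphae. For each gene the 6 fungal libraries lay above all 3 controls, and conidia and hyphae overlapped. After hyphae Col4a1 rose by 1.36 on the log2 scale (SE 0.20, adjusted p = 0.000403; 1.70 rescaled) and Col4a2 by 1.06 (SE 0.21, adjusted p = 0.0019; 1.40 rescaled). After conidia the log2 difference of Col4a1 was 1.05 (SE 0.20, adjusted p = 0.0548), and 1.20 (adjusted p = 0.01) without conidia replicate 2. For Col4a2 these values were 0.98 (SE 0.21, adjusted p = 0.0675) and 1.15 (adjusted p = 0.0115).

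Col4a1 and Col4a2 are a head-to-head pair. In RefSeq (GRCm38.p6, a later build than the one named for these data) their annotated starts lie 21 bases apart on opposite strands of chromosome 8. Col4a1 starts at 11312826 on the minus strand and Col4a2 at 11312805 on the plus strand, so their first transcribed bases overlap. The windows from 250 bases before to 50 bases after each start share 78 bases. The windows are shown because both genes rose after hyphae. Capitals mark the GC box GGGCGG and the CCAAT box on either strand (CCGCCC and ATTGG where they lie on the other strand). The Col4a1 window, chr8:11312777-11313076 on the minus strand, held 1 GC box and 1 CCAAT box, and the Col4a2 window, chr8:11312555-11312854 on the plus strand, held 3 and 1. The GC box of Col4a1 and the last GC box of Col4a2 are the same bases, within the shared stretch.
Col4a1: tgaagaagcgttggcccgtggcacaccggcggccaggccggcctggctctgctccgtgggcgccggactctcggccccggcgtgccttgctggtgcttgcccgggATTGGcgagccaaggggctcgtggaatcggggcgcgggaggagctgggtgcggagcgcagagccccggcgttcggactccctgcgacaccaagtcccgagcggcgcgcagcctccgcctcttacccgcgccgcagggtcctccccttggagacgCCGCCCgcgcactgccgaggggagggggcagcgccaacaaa
Col4a2: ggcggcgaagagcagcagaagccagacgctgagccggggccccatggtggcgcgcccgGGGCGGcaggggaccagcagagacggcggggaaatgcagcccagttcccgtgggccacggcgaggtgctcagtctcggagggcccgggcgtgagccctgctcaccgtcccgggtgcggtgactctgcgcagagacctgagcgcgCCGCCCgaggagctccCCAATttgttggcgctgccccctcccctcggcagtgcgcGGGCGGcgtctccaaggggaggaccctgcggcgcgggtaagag
Windows were at hand for 50 of the 71 genes. A GC box was found in 60% of these and in 35.9% of the windows of 27025 genes, a CCAAT box in 34 and 37.9%, a TATA box (TATAAA) in 10 and 14.2% and an AP-1 site (TGANTCA) in 2 and 7.93%, on either strand. The 27025 genes were not limited to mRNA-type genes, as the matrix genes were, so the paired shares come from unlike sets. Of the 10 genes that rose after hyphae 7 had a window, with a GC box in 4, a CCAAT box in 3 and a TATA box or AP-1 site in 0. These matches describe letters in the windows, and no binding was measured.

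Ratios between paired chains are given as levels, without a test. The ratio of Col4a1 to Col4a2 was 1.04 ± 0.03 in control, 1.097 ± 0.04 after conidia and 1.29 ± 0.04 after hyphae, and no hyphae library overlapped the other 6. Col4a3 and Col4a4, which contribute to the basement membrane shared by alveolus and capillary, had a ratio of 1.14 ± 0.31 in control, 1.35 ± 0.19 after conidia and 2.0 ± 0.14 after hyphae. Here too no hyphae library overlapped the other 6. Col4a3 itself stood at 14.5, 32.9 and 31.8 FPKM in control, 37.2, 35.7 and 27.1 after conidia and 46.3, 46.6 and 31.2 after hyphae, with overlap between groups. Its log2 difference between hyphae and control was 0.69 (adjusted p = 0.0707), and 1.03 after rescaling (adjusted p = 0.0175). Col4a4 had log2 differences of 0.13 after conidia and −0.13 after hyphae (0.20 rescaled), neither called. Col4a6 fell from 5.6 ± 1.09 to 3.24 ± 0.775 FPKM after hyphae (log2 change −0.64, SE 0.20, adjusted p = 0.0209). The call was lost after rescaling (−0.37, adjusted p = 0.105) and without control replicate 1 or hyphae replicate 2 or 3. Its neighbour Col4a5, chosen for mention after its values were seen, stood at 19.2 ± 1.02 and 20.9 ± 2.98 FPKM in the same groups, without a call as deposited. For a single ratio an exact permutation test of these group sizes reaches p = 0.1 at best, and so none was run.

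**Figure D3:**
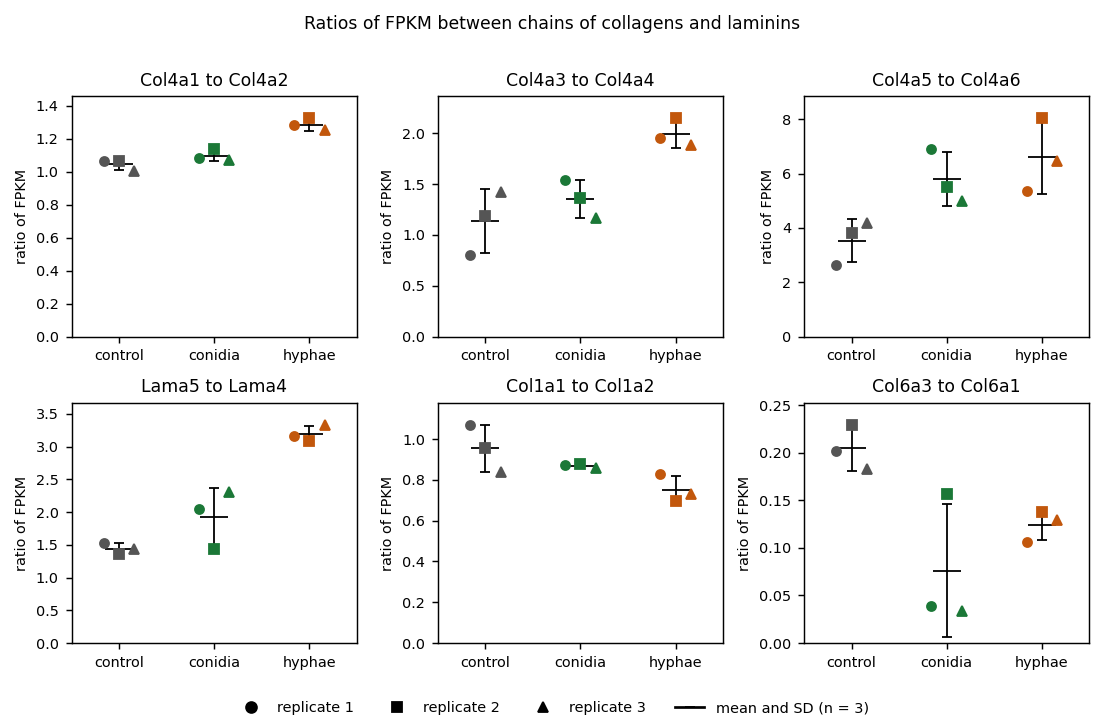
Ratio of FPKM between 6 pairs of chains (vertical axes, from 0) in each library, with the mean and SD of 3 libraries per group. Col4a1 to Col4a2, Col4a3 to Col4a4 and Lama5 to Lama4 were higher in all 3 hyphae libraries than in the other 6. Col1a1 to Col1a2 was lower in all 3, by a narrow margin (at most 0.828, against at least 0.84 in the other 6).

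Of 10 tested laminin genes, 4 rose and 0 fell after hyphae (40 and 0%, against 14.9 and 50% of all genes), and none was called after conidia. Lama5 (Entrez 16776), the alpha chain of many adult epithelial and endothelial laminins, stood at 23.9, 21.2 and 23.1 FPKM in control, 27.4, 22.9 and 24 after conidia and 43.2, 51.8 and 48.5 after hyphae. All 3 hyphae libraries lay above the other 6, which overlapped. Lama5 rose by 1.04 on the log2 scale after hyphae (SE 0.10, adjusted p = 7.92e-05; 1.37 rescaled). It was also higher after hyphae than after conidia, by 0.92 (SE 0.10, adjusted p = 0.000174; 1.20 rescaled). The log2 difference between conidia and control was 0.12 (adjusted p = 0.517). Lama4, an alpha chain of endothelial basement membranes, had log2 differences of −0.25 after conidia and −0.07 after hyphae (0.25 rescaled), neither called. The ratio of Lama5 to Lama4 was 1.44 ± 0.09 in control, 1.92 ± 0.45 after conidia and 3.195 ± 0.13 after hyphae. Lama2, the alpha chain of muscle laminin, stood at 7.06 ± 0.849 FPKM in control, 5.79 ± 1.54 after conidia and 8.15 ± 0.526 after hyphae and was higher after hyphae than after conidia (log2 change 0.45, SE 0.16, adjusted p = 0.0405; 0.71 rescaled). That call was lost in 7 of the 9 fits that left out 1 library, namely without control replicate 1 or 2, conidia replicate 1 or 3 or hyphae replicate 1, 2 or 3, and also with no filter and with only the 2 groups compared in the model.

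Lamc1, the gamma chain shared by most laminins, stood at 31.7, 32.9 and 32.4 FPKM in control, 38.6, 34.9 and 35 after conidia and 47.9, 51.6 and 41.7 after hyphae. The 3 groups did not overlap. It rose by 0.52 after hyphae (SE 0.10, adjusted p = 0.00138; 0.86 rescaled) and was higher by 0.37 than after conidia (SE 0.10, adjusted p = 0.0104; 0.65 rescaled). The log2 difference of 0.16 after conidia did not pass (adjusted p = 0.363).

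Lama3 and Lamb3 encode chains of the laminin that anchors epithelium at hemidesmosomes. Lamb3 rose from 21.3 ± 6.36 to 32.4 ± 3.2 FPKM after hyphae (log2 change 0.62, SE 0.22, adjusted p = 0.0345; 0.95 rescaled), a call lost without control replicate 1 or hyphae replicate 1 or 2. After conidia Lamb3 stood at 22.5 ± 4.15 FPKM (log2 difference 0.11, adjusted p = 0.804). Lama3 stood at 18 ± 7.57 FPKM in control, 15.3 ± 4.67 after conidia and 24.2 ± 6 after hyphae, with no call. Control replicate 1, where adipose and cardiac markers were high, held the lowest control value of Lama3, Lamb3, Col4a1, Col4a2 and Col4a3. Without it Col4a1 still rose by 1.20 after hyphae (adjusted p = 0.00157) and Col4a2 by 0.89 (adjusted p = 0.00663). Lamc3, a minor gamma chain, stood at 4.37, 3.36 and 2.74 FPKM in control, 10.1, 3.07 and 9.65 after conidia and 4.44, 2.53 and 2.53 after hyphae. Its level in conidia replicates 1 and 3 was not shared by replicate 2, without which it was called higher after conidia, by 1.29 (adjusted p = 0.0123). Lamb1 and Lamb2, the beta chains of most laminins, had log2 differences of 0.04 and 0.10 after hyphae (0.37 and 0.44 rescaled) and −0.11 and −0.03 after conidia. Neither was called as deposited, and Lamb2 was called between hyphae and control after rescaling (adjusted p = 0.00111).

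Nid1, nidogen 1, which bridges laminin and type IV collagen, stood at 26.4, 27.1 and 28.8 FPKM in control, 37.4, 31.8 and 33.5 after conidia and 35.2, 41.9 and 34.1 after hyphae. The controls lay below all 6 fungal libraries. Nid1 rose by 0.42 after hyphae (SE 0.10, adjusted p = 0.00642; 0.75 rescaled), and its log2 difference after conidia was 0.31 (adjusted p = 0.15). Hspg2, perlecan, averaged 19.5 ± 1.36 FPKM in control, 16.9 ± 4.14 after conidia and 25.1 ± 2.18 after hyphae. It was higher after hyphae than after conidia (log2 change 0.57, SE 0.16, adjusted p = 0.0141; 0.85 rescaled), a call lost without hyphae replicate 2 (0.50, adjusted p = 0.0553). Nid2, the second nidogen, averaged 3.31 ± 1.32 FPKM in control, 3.14 ± 0.085 after conidia and 3.9 ± 0.597 after hyphae and was not called. Of the 19 tested genes for laminins, nidogens, perlecan and type IV collagens, 7 rose and 1 fell after hyphae (36.8 and 5.26%, against 14.9 and 50% of all genes), and 12 rose and 0 fell after rescaling. Their median log2 change was 0.35 (0.68 rescaled), beside −0.37 (−0.07) for all genes tested. The 16 endothelial markers summed to 1767 to 2504 FPKM in control. Their sum was 2375 to 2787 FPKM with conidia and 2185 to 2381 with hyphae. The 9 alveolar type 1 markers summed to 2482 to 3505 FPKM in control, 3375 to 3664 with conidia and 3062 to 3587 with hyphae. Rescaled, the endothelial sums were 1598 to 2289 FPKM in control, 2295 to 2609 with conidia and 2442 to 2817 with hyphae. The rescaled type 1 sums were 2246 to 3189, 3105 to 3430 and 3657 to 3918 FPKM in the same order. With hyphae both sums overlapped the controls as deposited and lay above all of them after rescaling. The part of these markers in the basement membrane results was not tested.

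**Figure D4:**
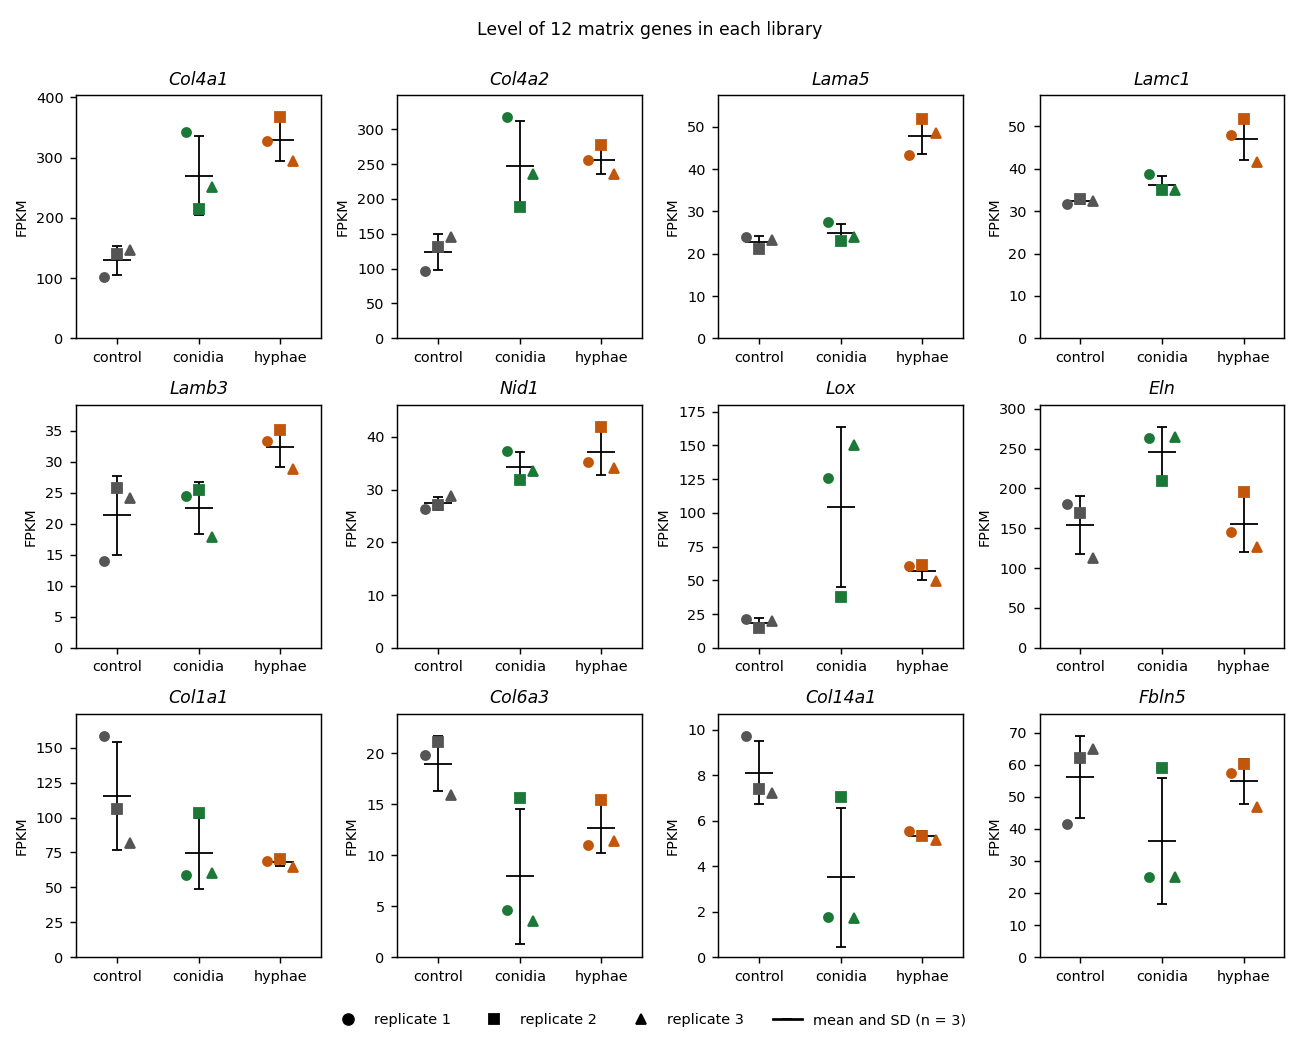
FPKM (vertical axes, from 0) of 12 matrix genes in each library, with the mean and SD of 3 libraries per group. Lama5 lay at 21.2 to 23.9 in control, 22.9 to 27.4 in conidia and 43.2 to 51.8 in hyphae libraries, whereas Lox, Col6a3, Col14a1 and Fbln5 set conidia replicates 1 and 3 apart from replicate 2.

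Of the 7 tested fibrillar collagens, 2 (Col1a1 and Col27a1) fell after hyphae as deposited, or 28.6%, a smaller share than the 50% of all genes called lower. After rescaling 0 fell, and 0 were called after conidia. All 7 log2 differences were negative in each comparison with control, as were those of 8596 of the 13761 genes tested for conidia and 9795 for hyphae, and after rescaling 6 were negative for conidia and 5 for hyphae. Col1a1, the main chain of type I collagen, stood at 158, 106 and 82.1 FPKM in control, 59, 103 and 60.5 after conidia and 69.2, 70.01 and 64.6 after hyphae. All hyphae libraries lay below the controls, and conidia replicate 2 lay among the controls. Col1a1 fell by 0.71 on the log2 scale after hyphae (SE 0.27, adjusted p = 0.042), but the call was lost after rescaling (−0.36, adjusted p = 0.241) and without control replicate 1 or 2, conidia replicate 3 or hyphae replicate 1, 2 or 3, and also with no filter. Col1a2, its partner, averaged 119 ± 26.1 FPKM in control, 85.2 ± 28 after conidia and 90.7 ± 8.68 after hyphae, and its log2 differences of −0.50 after conidia and −0.37 after hyphae (−0.03 rescaled) did not pass. Col3a1, type III collagen, averaged 149 ± 43.9 FPKM in control, 122 ± 56.1 after conidia and 100.1 ± 10.7 after hyphae and was not called either. Control replicate 1 was the highest control for these 3 genes. Col27a1, a fibrillar collagen of cartilage, fell from 6.03 ± 0.855 to 3.4 ± 0.266 FPKM after hyphae (log2 change −0.67, SE 0.22, adjusted p = 0.023). That call was lost after rescaling (−0.39, adjusted p = 0.13) and without control replicate 1 or 3 or hyphae replicate 1 or 3. The 3 type V chains, which regulate fibril diameter, had log2 differences of −0.41 to −0.04 after conidia and −0.49 to −0.13 after hyphae (−0.30 to 0.18 rescaled), with no call. The 11 fibroblast markers summed to 2742 to 3366 FPKM in control, 1842 to 2732 after conidia and 2479 to 2591 after hyphae, and the 12 smooth muscle and pericyte markers to 381 to 715, 316 to 371 and 317 to 379. After rescaling, fibroblast sums lay between 2476 and 3076 FPKM in control, between 1833 and 2472 with conidia and between 2687 and 3094 with hyphae. For smooth muscle and pericyte markers the rescaled sums were 348 to 647, 296 to 336 and 369 to 453 FPKM in the same order. Both sums with hyphae thus lay below all controls as deposited but overlapped them after rescaling. Both sums with conidia lay below all controls in either scaling. The part of these markers in the collagen levels was not tested.

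Collagens of fibril surfaces and beaded filaments showed a wide spread between conidia libraries. Col14a1, a fibril-associated collagen of connective tissue, stood at 9.72, 7.39 and 7.23 FPKM in control, 1.76, 7.05 and 1.74 after conidia and 5.55, 5.35 and 5.14 after hyphae. All fungal libraries lay below all controls, and conidia replicate 2 lay just below them. The log2 difference was −1.20 after conidia (SE 0.37, adjusted p = 0.13) and −0.51 after hyphae (adjusted p = 0.248; −0.21 rescaled). Col6a3, a chain of the beaded filaments around cells, stood at 19.8, 21.1 and 15.9 FPKM in control, 4.64, 15.6 and 3.53 after conidia and 11, 15.4 and 11.4 after hyphae. Again all fungal libraries lay below the controls, and conidia replicate 2 was the highest of its group. Its log2 difference was −1.40 after conidia (SE 0.42, adjusted p = 0.125) and −0.56 after hyphae (adjusted p = 0.265; −0.23 rescaled). Without conidia replicate 2, Col14a1 was called lower after conidia, at −1.72 (adjusted p = 0.000768), as was Col6a3, at −1.97 (adjusted p = 0.00126). Both were then higher after hyphae than after conidia, by 1.21 (adjusted p = 0.000555) and 1.42 (adjusted p = 0.000795). In the same fit both were also called lower after hyphae than in control, at −0.51 (adjusted p = 0.00712) and −0.56 (adjusted p = 0.0164). These calls too follow in part from leaving out conidia replicate 2.

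The partners of Col6a3 gave other values. Col6a1 averaged 92.6 ± 5.53 FPKM in control, 108 ± 10.52 after conidia and 101 ± 12.2 after hyphae, and Col6a2 averaged 74 ± 8.25 FPKM in control, 64.3 ± 7.73 after conidia and 77.8 ± 8.5 after hyphae, with no call as deposited. The ratio of Col6a3 to Col6a1 was 0.20, 0.23 and 0.18 in control, 0.04, 0.16 and 0.03 after conidia and 0.11, 0.14 and 0.13 after hyphae, so that all 6 fungal libraries lay below all controls. Col16a1, another fibril-associated collagen, stood at 12.7, 11.7 and 10.2 FPKM in control, 4.3, 9.99 and 4.95 after conidia and 9.64, 10.1 and 10.2 after hyphae. It was higher after hyphae than after conidia (log2 change 0.64, SE 0.24, adjusted p = 0.0466; 0.90 rescaled), although conidia replicate 2 lay among the hyphae libraries. The call was lost in 8 of the 9 fits that left out 1 library and remained only without conidia replicate 2 (0.96, adjusted p = 0.000708). It was also lost with no filter and with only the 2 groups compared in the model. Col12a1, which binds type I fibrils, was higher after hyphae than after conidia with no overlap, at 4.19 ± 0.542 against 2.29 ± 0.424 FPKM (log2 change 0.66, SE 0.18, adjusted p = 0.012; 0.88 rescaled). This call was kept in all 9 such fits. Col20a1 was higher likewise, by 0.34 (adjusted p = 0.0213; 0.54 rescaled), which was lost without conidia replicate 3 or hyphae replicate 2 and with only the 2 groups compared in the model. Col26a1 fell from 1.64 ± 0.468 to 0.95 ± 0.19 FPKM after hyphae (log2 change −0.43, adjusted p = 0.0409). It was not called after rescaling (−0.24, adjusted p = 0.183) or without control replicate 1 or 2, conidia replicate 3 or hyphae replicate 2 or 3, nor with only the 2 groups compared in the model.

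Col8a2, a short-chain network collagen of vessel walls and cornea, had the most negative log2 change of a tested matrix gene between hyphae and control. It stood at 6.2, 4.65 and 3.69 FPKM in control, 2.13, 3.55 and 2.95 after conidia and 2.55, 1.26 and 0.78 after hyphae, and both fungal groups lay below all controls. It fell by 1.25 on the log2 scale after hyphae (SE 0.27, adjusted p = 0.0032; −1.02 rescaled), and the log2 difference of −0.59 after conidia did not pass (adjusted p = 0.247). Its partner Col8a1 averaged 2.9 ± 0.147 FPKM in control, 3.62 ± 0.257 after conidia and 3.04 ± 0.446 after hyphae, without a call. Col7a1, the anchoring fibril collagen, named after its values were seen, lay at 1.16 to 1.85 FPKM over the 9 libraries. Of the transmembrane collagens, Col13a1 lay at 12.5 to 23.3 FPKM, Col23a1 at 11.6 to 17.8 and Col17a1, a hemidesmosome protein, at 0.33 to 1.37, with no call as deposited. The multiplexins Col15a1 and Col18a1, collagens of vascular basement membranes, were not called. Col15a1 was highest in control replicate 1, at 12 FPKM against 4.83 and 4.37 in the other controls, 2.29 to 4.05 after conidia and 3.39 to 7.23 after hyphae. Col18a1 lay at 8.01 to 12.9 FPKM.

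**Figure D5:**
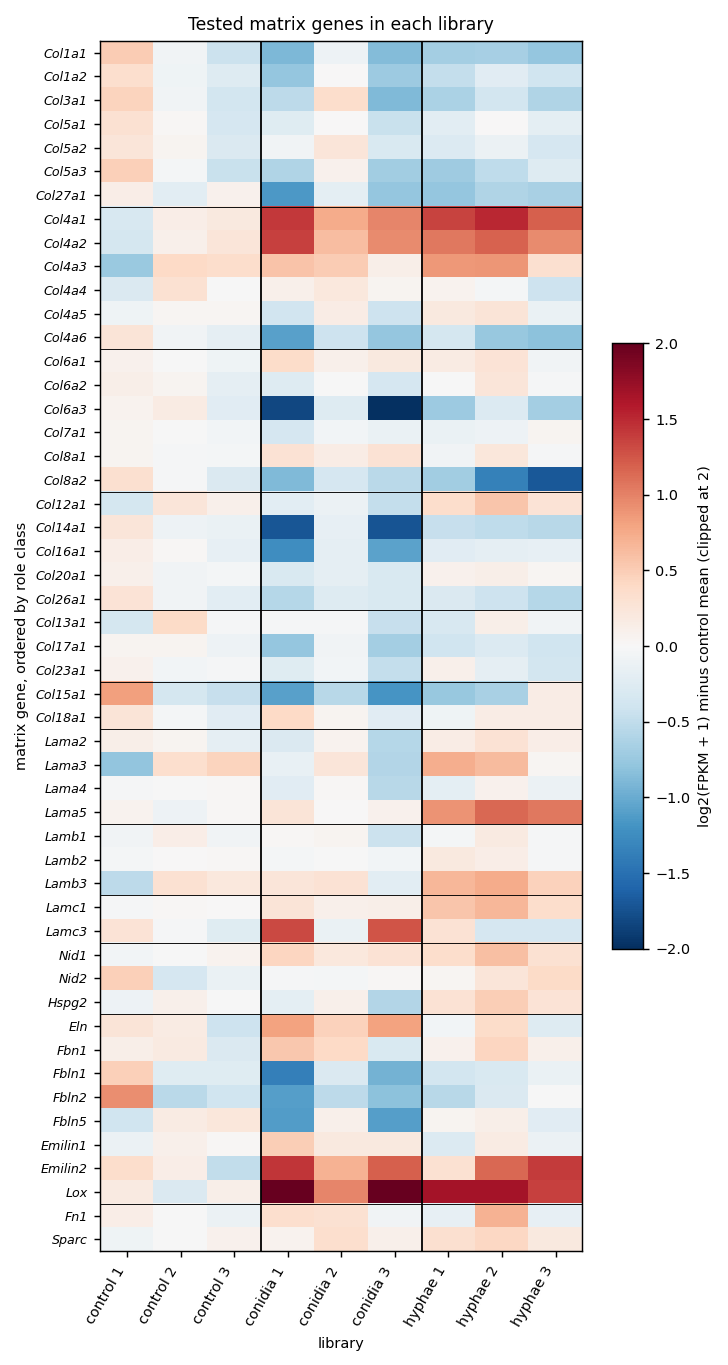
Log2(FPKM + 1) of 51 of the 52 tested matrix genes in each library minus the control mean, in role order (rows) and by library (columns); red is higher, blue lower, and colours end at 2. Conidia replicates 1 and 3 are deep blue at Col6a3 and Col14a1 and deep red at Lox, while conidia replicate 2 is paler at these genes.

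Among elastic fibre genes, Lox, lysyl oxidase, which crosslinks elastin and fibrillar collagen, stood at 21, 15 and 20.03 FPKM in control, 125.8, 37.5 and 150.03 after conidia and 60.6, 61 and 49.3 after hyphae. All fungal libraries exceeded all controls, and conidia replicates 1 and 3 exceeded every hyphae library. Lox rose by 1.57 on the log2 scale after hyphae (SE 0.44, adjusted p = 0.0122; 1.90 rescaled), the largest rise of a tested matrix gene in that comparison. The log2 difference after conidia was 2.21 (SE 0.44, adjusted p = 0.0595), and 2.83 (adjusted p = 0.000223) without conidia replicate 2. Between hyphae and conidia it was −0.65 (adjusted p = 0.238; −0.36 rescaled), and −1.26 (adjusted p = 0.000924) without conidia replicate 2.

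Eln, elastin, stood at 181, 169 and 113 FPKM in control, 264, 209 and 264 after conidia and 146, 196 and 126.3 after hyphae. The conidia libraries lay above all 6 others. Eln was lower after hyphae than after conidia (log2 change −0.67, SE 0.21, adjusted p = 0.0262). The call was lost after rescaling (−0.38, adjusted p = 0.189) and without conidia replicate 1 or 3 or hyphae replicate 1 or 3. The log2 difference between conidia and control was 0.69 (adjusted p = 0.132) and that between hyphae and control 0.02 (0.37 rescaled). Emilin1, an elastic fibre glycoprotein, averaged 19.5 ± 1.59 FPKM in control, 24.2 ± 3.08 after conidia and 18.6 ± 3.13 after hyphae. It was lower after hyphae than after conidia (log2 change −0.36, adjusted p = 0.0461), with no call after rescaling (−0.09, adjusted p = 0.668) or in 8 of the 9 fits that left out 1 library, remaining only without hyphae replicate 2. It was also lost with no filter and with only the 2 groups compared in the model. Emilin2, a related glycoprotein, stood at 5.65, 4.73 and 2.72 FPKM in control, 13.1, 7.43 and 10.9 after conidia and 5.44, 10.51 and 12.8 after hyphae. It rose after hyphae by 0.95 (SE 0.33, adjusted p = 0.0293; 1.25 rescaled), although hyphae replicate 1 lay among the controls, and the call was lost without control replicate 2 or 3 or hyphae replicate 2 or 3. Its log2 difference after conidia was 1.11 (adjusted p = 0.124).

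Fibulins join elastin to cells and microfibrils. Fbln5, needed for elastic fibre assembly, stood at 41.5, 62 and 64.9 FPKM in control, 24.9, 59 and 25 after conidia and 57.4, 60.04 and 46.9 after hyphae. The log2 difference was −0.71 after conidia (adjusted p = 0.243) and −0.02 after hyphae (0.32 rescaled). Fbln1, a fibulin of elastic fibres and basement membranes, stood at 49.8, 29.7 and 29.8 FPKM in control, 13, 28.8 and 17.9 after conidia and 27.1, 28.4 and 32.2 after hyphae, with no call as deposited. Without conidia replicate 2, Fbln5 was called lower after conidia, at −1.11 (adjusted p = 0.0126), as was Fbln1, at −1.16 (adjusted p = 0.0214). Fbln2, named after its values were seen, was at 13.4 FPKM in control replicate 1 and 2.52 to 6.51 in all other libraries. Fbn1, the main fibrillin, also named after its values were seen, lay at 10.9 to 20.1 FPKM without a call. Fn1, fibronectin, which cells assemble early in matrix, lay at 33.6 to 62.1 FPKM, the highest in hyphae replicate 2, without a call. Sparc, a collagen-binding matricellular protein, rose from 781 ± 47.9 to 968 ± 69.5 FPKM after hyphae (log2 change 0.31, SE 0.11, adjusted p = 0.0347; 0.65 rescaled), a call lost without control replicate 1 or 2 or hyphae replicate 1 or 2.

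The remaining 19 matrix genes did not pass the filter. Emilin3, a glycoprotein related to the other emilins, was at 0, 0 and 0.02 FPKM in control, 0.01, 0 and 0.02 after conidia and 0.88, 0.56 and 0.6 after hyphae. This corresponds to about 57, 36 and 37 fragments after hyphae and at most 1 in any other library. Col2a1, the main collagen of cartilage, was at 0.01 to 0.04 FPKM in the 6 other libraries and at 0.3, 0.3 and 0.41 after hyphae, about 28, 28 and 37 fragments against at most 4. Col10a1, a collagen of hypertrophic cartilage, was at 0 to 0.05 FPKM in the 6 other libraries and at 0.17, 0.18 and 0.09 after hyphae, about 10, 10 and 5 fragments against at most 3. When no filter was applied these 3 were called higher after hyphae by limma, with adjusted p-values of 0.000105, 0.000118 and 0.00303, where 12% of all genes were called higher and 39.4% lower. Col9a3, a cartilage collagen chain, was called lower (adjusted p = 0.00644), at 0.38 to 0.57 FPKM in control, 0.2 to 0.4 after conidia and 0.12 to 0.24 after hyphae. Of 10 cartilage markers none passed the filter. Together they summed to 0.8 to 1.7 FPKM in control, 0.77 to 0.89 after conidia and 1.26 to 2.26 after hyphae. Control and hyphae thus overlapped in this sum. Acan, aggrecan, was at 0 to 0.01 FPKM over the 9 libraries, and Sox9, a transcription factor of cartilage and airway progenitors, at 0.21 to 0.45 in control, 0.4 to 0.46 after conidia and 0.84 to 1.45 after hyphae. For the other 15 genes the FPKM ranges over the 9 libraries were Col11a2 0.46 to 0.98, Col6a5 0.05 to 0.82, Col28a1 0.19 to 0.62, Col6a6 0.01 to 0.5, Lama1 0.07 to 0.32, Fbln7 0.04 to 0.28, Col6a4 0.11 to 0.24 and Col22a1 0.01 to 0.24. They were Col24a1 0.02 to 0.18, Col25a1 0.03 to 0.11, Fbn2 0 to 0.08, Col11a1 0.01 to 0.05, Col9a2 0 to 0.04, Col19a1 0 to 0.04 and Col9a1 0 to 0.03 for the rest. Col6a5 and Col6a6 had their highest values in control replicate 1.

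Genes that build, modify, bind or degrade these proteins were followed in 7 further lists. Their shares called higher and lower are read against 0.596 and 0.0945% of all genes after conidia, 14.9 and 50% after hyphae, and 26.8 and 33.3% after hyphae when rescaled. Of 28 tested genes for collagen folding and processing none was called after conidia, and 2 rose and 7 fell after hyphae (7.14 and 25%; 9 and 1 rescaled). Adamts14, a procollagen protease, rose by 0.99 (1.21 rescaled), and P4ha2, a subunit of the prolyl hydroxylase that stabilises the triple helix, rose by 0.82 (1.16 rescaled). Tll1, another procollagen protease, fell by 0.71 (−0.53 rescaled). Pcolce2, an enhancer of procollagen processing, was higher after hyphae than after conidia by 1.32 (1.61 rescaled), and Colgalt1, a collagen glycosyltransferase, was lower, with a log2 change of −0.59 (−0.31 rescaled). Of 14 microfibril and elastic fibre accessory genes none was called after conidia as deposited, and 3 rose and 1 fell after hyphae (21.4 and 7.14%; 7 and 0 rescaled). Adamtsl2, a protein of fibrillin microfibrils, stood at 16 ± 0.639 FPKM in control, 26.4 ± 1.48 after conidia and 38.7 ± 8.17 after hyphae, a log2 change of 1.20 (1.54 rescaled) for hyphae against control (adjusted p = 0.000148). Adamtsl4, a related protein, rose by 0.61 (0.94 rescaled), and Efemp2, the fibulin that brings lysyl oxidase to elastin, fell by 0.52 (−0.19 rescaled), a call lost after rescaling. Ltbp4, a latent TGF-beta binding protein of elastic fibres, was higher by 0.64 (0.92 rescaled) after hyphae than after conidia, and Mmrn2, an endothelial emilin-like protein, by 0.60 (0.86 rescaled). Of 10 other basement membrane genes 1 rose and 1 fell after hyphae (10 and 10%; 2 and 0 rescaled). Tinagl1, a laminin-binding protein, rose by 1.55 (1.89 rescaled), and Frem1 fell by 0.65 (−0.41 rescaled), a call lost after rescaling. Npnt, nephronectin, was higher by 0.87 (1.15 rescaled) after hyphae than after conidia. None of 10 matrix proteoglycan genes was called as deposited in any comparison, and 3 were called higher after hyphae than in control when rescaled.

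Of 21 receptors for collagens and laminins none was called after conidia, and 4 rose and 3 fell after hyphae (19 and 14.3%; 9 and 1 rescaled). Sdc4, a heparan sulfate proteoglycan of focal adhesions, stood at 73.4 ± 5.5 FPKM in control, 96.6 ± 24.4 after conidia and 348 ± 147 after hyphae, a log2 change of 2.15 (2.49 rescaled) for hyphae against control (adjusted p = 0.000311). Ddr1, a collagen receptor, fell by 0.62 (−0.28 rescaled), a call lost after rescaling, and Itga10, a collagen-binding integrin chain, fell by 0.61 (−0.45 rescaled). The integrin chain Itga8 was higher after hyphae than after conidia by 1.26 (1.54 rescaled), and Itga7, a laminin-binding chain, was lower, with a log2 change of −1.08 (−0.82 rescaled), no longer called after rescaling. Of 24 matrix proteases and inhibitors 3 were called higher after conidia (12.5%; 1 rescaled), and 9 rose and 4 fell after hyphae (37.5 and 16.7%; 10 and 2 rescaled). Those called after conidia were Timp1, an inhibitor of metalloproteinases, with a log2 change of 3.33 (3.38 rescaled), the neutrophil collagenase Mmp8, with 3.17 (3.16 rescaled), and Mmp3, stromelysin, with 1.46 (1.51 rescaled). Only Timp1 kept the call after rescaling. Dropping any single control library ended all 3 of these calls, Timp1 included, and so did dropping the third conidia library. In each of those fits no gene at all was called between conidia and control. Timp1 stood at 14.4 ± 4.72 FPKM in control, 167 ± 99.8 after conidia and 18 ± 3.27 after hyphae, and it was lower after hyphae than after conidia, with a log2 change of −3.0 (−2.72 rescaled, adjusted p = 0.000293 as deposited). Adamts1, a protease of proteoglycans, stood at 25.8 ± 1.71 FPKM in control, 18.7 ± 4.75 after conidia and 97.2 ± 16.9 after hyphae and was higher after hyphae than after conidia by 2.33 (2.61 rescaled, adjusted p = 5.27e-05 as deposited). After hyphae Mmp8 rose by 3.89 (4.16 rescaled), Plat, tissue plasminogen activator, by 2.51 (2.84 rescaled) and Plaur, the urokinase receptor, by 2.41 (2.75 rescaled). Of 16 genes of the TGF-beta pathway, an inducer of many matrix genes, none was called after conidia, and 4 rose and 2 fell after hyphae (25 and 12.5%; 10 and 1 rescaled). Skil, a repressor of SMAD proteins, rose by 1.35 (1.68 rescaled), Tgif1, another such repressor, by 1.21 (1.54 rescaled) and Tgfbr3, the coreceptor betaglycan, by 1.01 (1.34 rescaled).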

How the data were processed

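The deposited values are FPKM per gene and library, per the file headers, with symbols and Entrez IDs. The submitters' processing notes list HISAT, Bowtie2 and mm9 but no roles or versions. The sources used here name no tool that computed FPKM and no further scaling.

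From these values log2(FPKM + 1) was fitted with limma 3.58.1 in R 4.3.3 (trend, robust empirical Bayes), with all 9 libraries in 1 model and a term per group. The filter was 1 FPKM in 3 libraries, tests were two-sided, and Benjamini-Hochberg adjustment covered 13761 genes. The fit was tested on simulated data. At most 0.438% of values above 1 FPKM were identical between any pair of libraries. Depth was estimated from low values and transcript lengths (20300000 to 22200000 fragments if 150 bases are taken off each length). With no counts deposited, intervals for single values were not computed.

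The matrix genes, their classes and all lists were chosen with earlier results of these data known. In each class up to 4 genes with the highest mean level were named, with the 5 largest called changes per direction (all where 12 or fewer were called), up to 3 called genes per further list and comparison, and every gene below the filter. The values of 1 tested matrix gene are not reported here, and it is in the counts and sums but in no figure of single genes. Alternatives were median-of-ratios rescaling, a pseudocount of 0.1, no filter, non-robust moderation, only the 2 groups compared, a replicate block and leaving out each library.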

Additional observations from a re-analysis of the deposited data

How the results depend on the processing

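The number of matrix genes called depended most on the scaling and on single libraries. After median-of-ratios rescaling 19 rose and 1 fell between hyphae and control, and 20 were higher and 0 lower between hyphae and conidia, beside 10, 5, 7 and 2 as deposited. Without a filter 8 genes were higher and 1 lower between hyphae and conidia (10.2 and 31.1% of all genes). With only the 2 groups compared in the model, 5 were higher and 1 lower (11.2 and 38.1%). The 8 include Emilin3, Col2a1 and Col10a1, which the filter had left out (adjusted p = 0.000143, 0.000191 and 0.0119 by limma). Why other calls changed was not tested. Of the called higher genes of that comparison, Col16a1 and Lama2 lost the call in both settings and Col20a1 with only the 2 groups compared. For hyphae against control, Col1a1 lost it without a filter and Col26a1 with only the 2 groups compared. When each library was left out in turn, 0 to 5 were higher and 0 to 10 lower for conidia against control (0 to 4.77 and 0 to 6.38% of all genes). For hyphae against control 7 to 11 were higher and 1 to 9 lower (12.2 to 15.1 and 43.6 to 50.6%). For hyphae against conidia 3 to 14 were higher and 0 to 3 lower (9.73 to 12.6 and 33.6 to 44.9%). Where 2 libraries of a group were left, the spread was pooled over the groups. The pseudocount of 0.1 and non-robust moderation gave the counts as deposited. No called change of a named matrix gene reversed direction under the alternatives run. Groups share replicate numbers, but libraries of the same number did not deviate together (r = −0.31 to 0.42 over 9 pairs, against −0.54 to 0.30 over 18 pairs of different numbers). With the replicate block 10 rose and 4 fell for hyphae against control (14 and 48.2% of all genes). For hyphae against conidia 7 were higher and 2 lower (11.8 and 40.2%). For conidia against control 0 were called in either direction (0.363 and 0.0509%). The block ended the calls of Emilin2 and Col26a1 (hyphae against control) and of Emilin1 (hyphae against conidia), and Hspg2 and Lamc3 were called instead in the respective comparisons.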
